A study of Drosophila melanogaster with 12 samples.

Results

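The transcripts described here encode the proteins of the cytosolic ribosome, and their RNA was sequenced from the Malpighian tubule of Drosophila melanogaster, the organ that makes the urine of the fly. A gene was taken as a member when its FlyBase symbol, matched through the FBgn identifier or the CG number of the files, begins with RpL (large subunit) or RpS (small subunit), which gave 92 of 13919 genes, 54 RpL and 38 RpS. The hybrids were the F1s SU26xSU58, SU26xZI418N and SU58xZI418N, and the parental lines were ZI418N from Zambia and SU58 and SU26 from Sweden, which the strain labels also write as Z418, S58 and S26. All flies were females aged 6 days, kept on cornmeal-molasses food at 20 °C in days of 14 h light and 10 h dark, and no group was treated. Each of the 6 genotypes had 2 libraries that the labels call biological replicates, so n = 2 for every mean ± SD, and p-values measure the spread between these libraries only. The sources used here do not give which parent was the mother of a hybrid or how many flies went into a library.

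A ribosome is built from ribosomal RNA and a large set of proteins, and most of these proteins have a single gene in Drosophila. Loss of a copy of many of these genes gives the Minute phenotype, with slow development and thin bristles, so the supply of many of these proteins limits growth. Some members have a second gene, often used in the germ line, and some genes with a -like name resemble yeast factors that work in ribosome assembly rather than in the finished ribosome. The unit of level is CPM, a count relative to the library size scaled by the TMM factors of edgeR, and levels of different genes are compared only after division by gene length, in CPM per kb.

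The tubule identity of the samples was checked with marker genes. The 7 principal cell markers that were found summed to 9699 to 17736 CPM and the 7 stellate cell markers to 881 to 1470 CPM, and none of them was at 0 in any library. Other tissue was also present: the 10 female germ line markers found summed to 950 CPM in SU26xZI418N replicate 2 and to 185 to 221 CPM in the other 11 libraries, and the 13 eggshell and follicle cell markers summed to 1257 CPM in SU58 replicate 1 and to 157 to 1032 CPM elsewhere. Most of the germ line sum elsewhere came from BicD and gus. Most of the eggshell sum in every library came from Yp1, Yp2 and Yp3, with 419, 272 and 339 CPM in ZI418N replicate 2. Vm26Aa, Vm26Ab, Vml and Vm34Ca had 54.7 to 118 CPM in SU58 replicate 1 and at most 0.78 CPM in the other libraries. The germ line marker osk had 111 CPM in SU26xZI418N replicate 2, 4.15 CPM in SU58xZI418N replicate 2 and at most 1.75 CPM in the other libraries. None of the germ line markers and up to 6 of the eggshell markers were at 0 in a library. Salivary gland markers summed to 131 and 17.3 CPM in the ZI418N libraries, 74.3 CPM in SU58xZI418N replicate 1 and 24.2 CPM in SU26xZI418N replicate 2. Nearly all of this came from LysP, and the sum was at most 0.43 CPM elsewhere. Fat body markers summed to 25.7 to 123 CPM. SU58 replicate 1 and SU26xZI418N replicate 2 are left out in an alternative below, as the 2 libraries with other tissue. Other libraries also held markers of other tissue. In bulk tissue, fewer cells of a type and less RNA per cell cannot be told apart. The libraries held 30834175 to 43479929 counts, and no pair of replicate files was identical.

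Ribosomal protein transcripts were abundant. Together the members took between 5.28% and 6.55% of the counts of a library, and 85 of the 92 passed edgeR's filter on low counts. The highest levels per length belonged to RpL41, which encodes the shortest protein of the ribosome, with 1477 CPM per kb as a mean over the 12 libraries. It was followed by RpL21 with 1394, RpL27A with 1365, RpL7A with 1283 and RpS27A, which is made as a fusion to ubiquitin, with 1280 CPM per kb. The 7 members that did not pass the filter were all second copies of another member, and they are described with the paralogs. Of the 92 members, 19 lie on arm 2L, 21 on 2R, 14 on 3L, 23 on 3R, 14 on X and 1 on chromosome 4.

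The share of the counts had genotype means from 5.46% in ZI418N to 6.44% in SU58, and its replicates differed most in SU26xSU58. It was 6.06% and 5.28% in SU26xSU58, 5.78% and 5.54% in SU26xZI418N, and 5.97% and 6.12% in SU58xZI418N. Among the parental lines it was 5.49% and 5.42% in ZI418N, 6.34% and 6.55% in SU58, and 5.75% and 5.44% in SU26. Both SU58 libraries lay above all others, while SU26xSU58 replicate 2 and ZI418N replicate 2 were the lowest. A permutation test on 2 against 2 libraries could not pass the threshold, since its smallest two-sided p is 1 in 3.

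Across genotype means the members ranged less than the median gene. The highest genotype mean of a member exceeded the lowest by 1.19-fold in the median of the 85 tested members, against 1.52-fold in the median of all 9302 genes tested. High counts narrow such ranges, so this is a description of levels and not a test. RpL7A, a large subunit protein, was the most even, with a range of 1.06-fold. Among the wider ranges were those of RpL5 with 1.55-fold, RpL38 with 1.54-fold, and RpL32 and RpL39 with 1.40-fold each.

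The members moved together from library to library. The median deviation of the 85 tested members from their own means over the 12 libraries was 0.15 on the log2 scale in SU58 replicate 2, with 81 members above their mean, and 0.07 in SU58 replicate 1, with 73 above. It was -0.11 and -0.05 in the ZI418N libraries, with 6 and 15 members above. The lowest library was SU26xZI418N replicate 2, which also had the highest germ line markers, with a median of -0.17 and 1 member above its mean. That place holds under the TMM scaling, where this library had the highest factor, 1.09. By share of the counts it had 5.54%, above both ZI418N libraries, SU26 replicate 2 and SU26xSU58 replicate 2. Replicates were not always alike, since SU26xSU58 had medians of 0.08 and -0.12, with 72 and 12 members above.

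**Figure D1:**
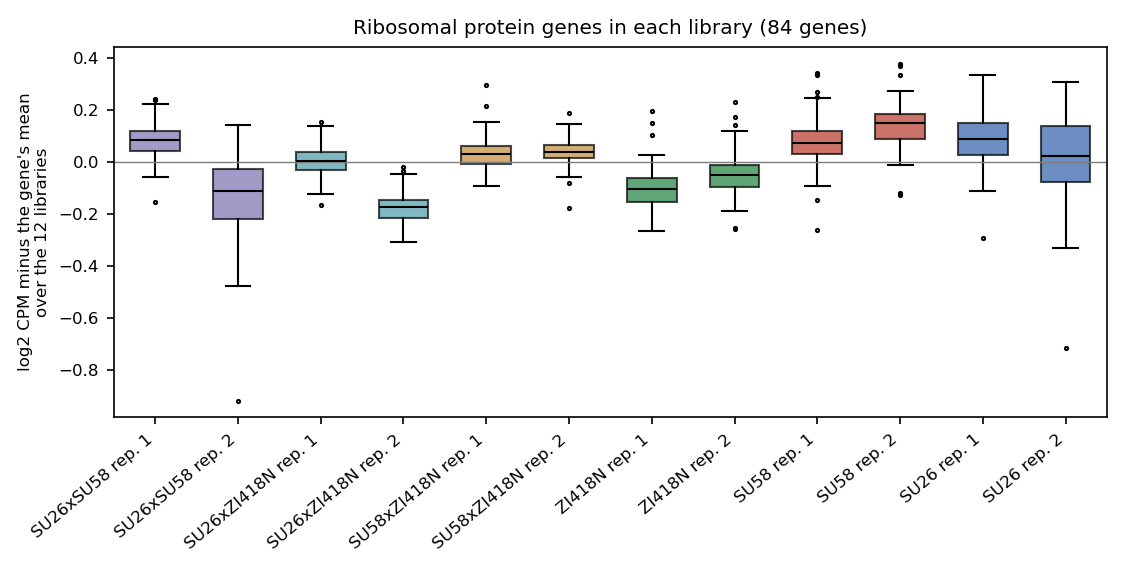
Deviation of each ribosomal protein gene from its own mean over the 12 libraries, in log2 CPM, as a box for each library (line, median; box, quartiles; dots, genes beyond the whiskers), hybrids left and parental lines right. Of the tested members, 84 are drawn. The boxes of SU58 lie above 0, those of ZI418N below 0, and the replicates of SU26xSU58 and of SU26xZI418N are set apart.

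A second pattern set replicates apart gene by gene. RpL38, a large subunit protein gene, had 425 and 193 CPM in the 2 SU26xSU58 libraries and 395 and 223 CPM in the 2 SU26 libraries, against 354 to 441 CPM in the other 8. Replicate 2 of these 2 genotypes thus lay below every other library for RpL38. Over 84 of the tested members, the log2 difference of replicate 2 minus replicate 1 in SU26xSU58 ran with that in SU26 (Pearson's r 0.86, Spearman's rho 0.86), while the r of the other 14 pairs of genotypes lay between -0.16 and 0.41. The points share their libraries and gene lengths, so these values describe the libraries and carry no p-value.

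The difference was -1.14 in SU26xSU58 and -0.83 in SU26 for RpL38, -0.64 and -0.50 for RpS21, -0.61 and -0.43 for RpS18, and -0.58 and -0.40 for RpL41. These 4 were chosen after their values were seen. RpL38, with the largest drop, has 1013 bases and is the longest of the 4, beside 715 in RpS21, 606 in RpS18 and 320 in RpL41. Spearman's rho with gene length was 0.55 in SU26 and 0.41 in SU26xSU58, so short genes tended to be the lower ones in replicate 2 of both. It was -0.27 in SU58xZI418N, the other way, and -0.02 in SU26xZI418N, 0.03 in ZI418N and 0.07 in SU58. In SU26xZI418N all 84 members were lower in CPM in replicate 2, by a median of -0.18. This holds under the TMM scaling, with factors of 1.00 in replicate 1 and 1.09 in replicate 2. The share of the counts was 5.78% and 5.54%. Raw counts of some members were higher in replicate 2, as for RpL17 with 20219 and 21732, at totals of 37132279 and 36878661. What set these libraries apart was not tested.

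**Figure D2:**
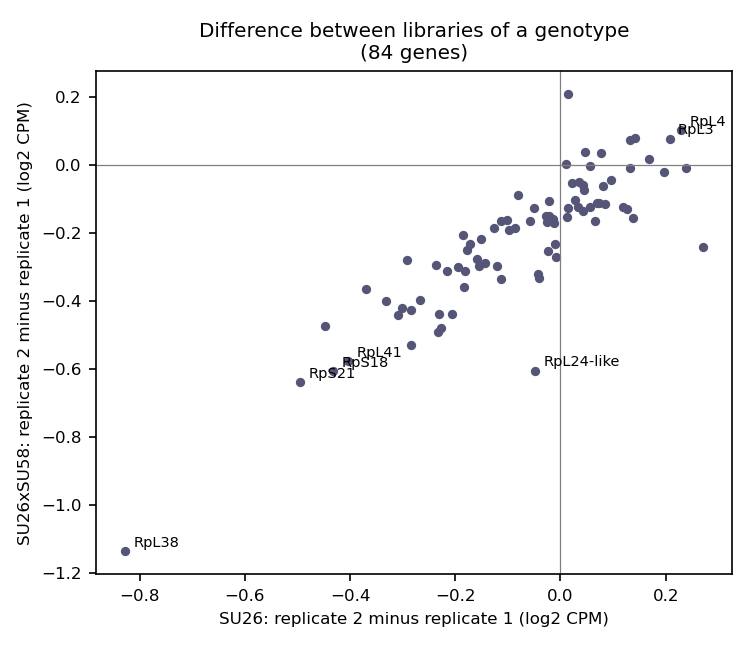
Difference between the libraries of a genotype for 84 of the tested ribosomal protein genes, replicate 2 minus replicate 1 in log2 CPM, in SU26 (x axis) and in SU26xSU58 (y axis), 1 point a gene. RpL38 lies at -0.83 and -1.14, and the points follow each other (Pearson's r 0.86).

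SU58 and SU26, the Swedish lines, differed in few ribosomal protein genes. In the quasi-likelihood test of edgeR, adjusted by Benjamini-Hochberg over all genes tested, 2 of 85 members passed at 0.05, 1 higher and 1 lower, beside 17.6% of all genes, 8.06% higher and 9.56% lower. RpL5, which carries the 5S ribosomal RNA into the large subunit together with RpL11, was higher in SU58, and RpLP0-like, whose yeast counterpart Mrt4 works in ribosome assembly, was lower. No other member passed, and 6 had an unadjusted p under 0.05. The median log2 fold change of the members was 0.05, with 56 of 85 above 0, beside 0.01 over all genes, and -0.02 when libraries were scaled to the sum of the members.

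RpL5 had 2731 and 2713 CPM in SU58, against 1761 and 1746 CPM in SU26. Both SU58 libraries exceeded both SU26 libraries by far more than the replicates differed. The log2 fold change was 0.63 ± 0.10 (SE), a 1.55-fold difference, with an adjusted p of 0.00377 by edgeR's quasi-likelihood test. It passed under all 20 alternative fits, with log2 fold changes from 0.57 to 0.77. The gene lies on 2L at 22532279 to 22536884 on the minus strand (Ensembl BDGP6), with 4 exon blocks and no exon base shared with another gene.

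RpL5 was also set apart within the ribosome. When each member was read against the sum of all members, its log2 fold change was 0.57 in SU58 over SU26, and RpL39, a protein of the peptide exit tunnel, passed with 0.40 and RpL34b with -0.28. The mean of each hybrid lay between those of its parents: 2361 and 2097 CPM in SU26xSU58, 2019 and 1740.4 CPM in SU26xZI418N, and 2639.7 and 2377 CPM in SU58xZI418N, beside 1964 and 2044 CPM in ZI418N. The 2 hybrids of SU58 were thus above SU26xZI418N in every library.

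RpLP0-like, at a low level, had 12.7 and 12.9 CPM in SU58, against 17.2 and 17.4 CPM in SU26. The libraries of the lines did not overlap. The log2 fold change was -0.43 ± 0.11 (SE), with an adjusted p of 0.0301 by edgeR's quasi-likelihood test. The call was lost without any 1 of the 4 libraries of these lines (adjusted p 0.0886 to 0.185), with library totals and with scaling to the sum of the members.

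The libraries of the Swedish lines overlapped for more members than for most genes. For 37 of 85 members both SU58 libraries lay on one side of both SU26 libraries, beside 65.7% of all genes, and 2 members, RpL5 among them, had a fitted difference of at least 1.5-fold, beside 25.3% of all genes. Scaling by library totals, which moves the median of all genes by 0.14, gave 11 members higher and 0 lower in place of 1 higher and 1 lower. Principal cell markers summed to 9699 and 10505.5 CPM in SU58, against 17736 and 17650.1 CPM in SU26. Of the 7 markers, Uro, salt and NaPi-T were lower in both SU58 libraries than in both SU26 libraries, and the other 4 overlapped between the lines. The part of the markers in these differences was not tested. Leaving out SU58 replicate 1, SU58 replicate 2 or SU26 replicate 2, or both libraries with other tissue, left 1 call, that of RpL5.

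ZI418N and SU26, the African line against a Swedish line, differed in more members under the TMM scaling, but in fewer with library totals. Of 85 members 9 passed, 1 higher and 8 lower in ZI418N, beside 24.0% of all genes called in either direction, 10.9% higher and 13.1% lower. The members that were lower in ZI418N were RpS19a, RpS20 and RpS26 of the small subunit, RpL10, RpL18, RpL27 and RpL34b of the large subunit, and RpLP0-like, and RpL34a was higher. The median of the members was -0.14, with 72 of 85 below 0, beside 0.01 over all genes. That median was -0.05 with library totals and -0.01 when libraries were scaled to the sum of the members. Stellate cell markers summed to 1470.5 and 1380.0 CPM in ZI418N, against 937 and 881 CPM in SU26, and 6 of the 7 were higher without overlap. Principal cell markers summed to 13340.3 and 13862.5 CPM in ZI418N, below SU26, where Uro and salt were lower, Irk2 and ct were higher and the other 3 overlapped. The part of either list in the members' values was not tested.

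RpS19a, a protein of the head of the small subunit whose human counterpart is mutated in Diamond-Blackfan anaemia, had 499 and 502 CPM in ZI418N, against 679 and 699 CPM in SU26. Its libraries did not overlap, and both ZI418N libraries were the lowest of all 12. The log2 fold change was -0.46 ± 0.08 (SE), with an adjusted p of 0.00324 by edgeR's quasi-likelihood test. It lies on the X chromosome at 16637894 to 16639249 on the plus strand.

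RpS20, another protein of that head, had 408 and 407 CPM in ZI418N, against 543 and 573 CPM in SU26, with no overlap. The log2 fold change was -0.45 ± 0.08 (SE), with an adjusted p of 0.00453 by edgeR's quasi-likelihood test. RpS19a and RpS20 passed under all 20 alternative fits. RpS20 lies on 3R at 20822181 to 20823356 on the plus strand, and 7.80% of its exon bases are shared with CG17272 on the opposite strand. Reads of the 2 genes could not be told apart there if the counting took no account of strand, a setting the sources used here do not give.

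RpS26, which lies where the mRNA leaves the small subunit, had 647 and 677 CPM in ZI418N, against 822 and 872 CPM in SU26. RpL27 had 461 and 477 CPM in ZI418N, against 591 and 596 CPM in SU26. Neither overlapped between the lines, and the log2 fold changes were -0.35 ± 0.09 (SE) for RpS26 and -0.34 ± 0.09 (SE) for RpL27, with adjusted p of 0.0238 and 0.0291 by edgeR's quasi-likelihood test. RpL10 and RpL18, named because the 9 calls are listed in full, had log2 fold changes of -0.33 each. RpL27 shares 16.01% of its exon bases with Idh3g on the opposite strand.

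RpLP0-like had 14.3 and 12.8 CPM in ZI418N, against 17.2 and 17.4 CPM in SU26. It passed narrowly, with a log2 fold change of -0.35 ± 0.11 (SE) and an adjusted p of 0.0498 by edgeR's quasi-likelihood test, and was lost in 16 of the 20 alternative fits. For 56 of 85 members the libraries of the lines did not overlap, beside 64.8% of all genes, and 0 members differed by at least 1.5-fold, beside 28.8% of all genes.

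The count of calls for ZI418N over SU26 depended on single libraries. It was 3 and 2 without SU26 replicate 1 and replicate 2, 2 without either ZI418N library, and 3 without either SU58 library, which is in the fit only through the shared estimate of the spread. It was 6 without either SU58xZI418N library. The split of 1 higher and 8 lower became 2 higher and 4 lower with library totals and 3 higher and 2 lower with scaling to the sum of the members, where RpL34a (log2 fold change 0.49), RpL5 (0.33) and RpL15 (0.23) were higher and RpS19a (-0.33) and RpS20 (-0.32) were lower. That last scaling moves the median of all genes by 0.13. DESeq2 called 16, with 1 higher and 15 lower.

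ZI418N and SU58 differed in 6 of 85 members, all lower in ZI418N, beside 16.9% of all genes called in either direction, 7.58% higher and 9.33% lower. They were RpS19a, RpS20 and RpS15Aa of the small subunit and RpL5, RpL27 and RpL40 of the large subunit. The median of the members was -0.18, with 79 of 85 below 0, beside 0.01 over all genes and 0.01 when libraries were scaled to the sum of the members. This comparison shares its ZI418N libraries with the one against SU26 and its SU58 libraries with the one between the Swedish lines, so the 3 sets of values are not independent. Stellate cell markers summed to 957 and 952 CPM in SU58, below both ZI418N libraries, with 5 of the 7 higher in ZI418N without overlap and Lkr lower. Principal cell markers were also higher in ZI418N than in SU58, 5 of the 7 without overlap, and the part of either list was not tested.

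RpS15Aa, a protein of the small subunit body, had 504 and 509 CPM in ZI418N, against 667 and 686 CPM in SU58. RpL40, made as a fusion to ubiquitin like RpS27A, had 506 and 519 CPM in ZI418N, against 649.5 and 682 CPM in SU58. Neither gene overlapped between the lines. The log2 fold changes were -0.42 ± 0.10 (SE) for RpS15Aa and -0.38 ± 0.09 (SE) for RpL40, with adjusted p of 0.0190 and 0.0196 by edgeR's quasi-likelihood test.

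RpL5 was lower in ZI418N than in SU58 by -0.44 ± 0.10 (SE) on the log2 scale, with an adjusted p of 0.0181 by edgeR's quasi-likelihood test. In ZI418N over SU26 it was 0.19, with an adjusted p of 0.208, which did not pass. That difference passed with library totals (0.29, adjusted p 0.0312) and with scaling to the sum of the members (0.33, adjusted p 0.0138). RpS19a had 651 and 666 CPM in SU58 and RpS20 had 523 and 543 CPM, close to SU26 in both cases. Their log2 fold changes in ZI418N over SU58 were -0.39 each, with adjusted p of 0.00888 for RpS19a and 0.0127 for RpS20 by edgeR's quasi-likelihood test. RpL27 was -0.36, with an adjusted p of 0.0310. These genes were therefore low in ZI418N against both Swedish lines.

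Each of these 6 calls was lost when any 1 of the 4 libraries of the lines was left out, where the count was 0, while leaving out either SU58 library gave 7.51% and 7.28% of all genes called and leaving out either ZI418N library 8.84% and 8.63%. The log2 fold changes of the 6 stayed between -0.32 and -0.47 in those fits. The count was also 0 without the 2 libraries with other tissue, one of which is SU58 replicate 1. Without SU58 replicate 1 alone the log2 fold changes of the 6 ran from -0.39 for RpL27 to -0.44 for RpL5 and RpS15Aa. For 74 of 85 members the libraries of the lines did not overlap, beside 67.0% of all genes, and 1 member differed by at least 1.5-fold, beside 25.6% of all genes. DESeq2 called 16 members and library totals 18, all lower, and scaling to the sum of the members, which moves the median of all genes by 0.20, gave 2 higher, RpL34a (0.38) and RpS15Ab (0.50), and 1 lower, RpL5 (-0.25).

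**Figure D3:**
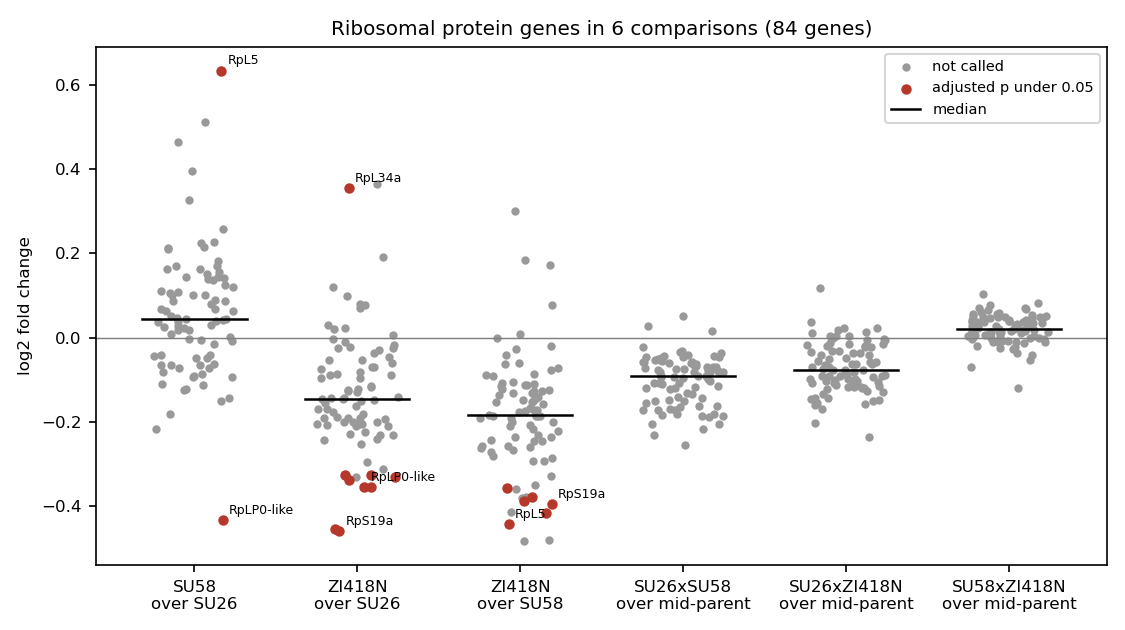
Log2 fold changes of 84 of the tested ribosomal protein genes in 6 comparisons, the 3 pairs of parental lines and the 3 hybrids over the mean of their parents, 1 point a gene. Points in colour passed an adjusted p of 0.05 by edgeR's quasi-likelihood test: 2 in SU58 over SU26, 9 in ZI418N over SU26, 6 in ZI418N over SU58 and 0 in the hybrids over the mean of their parents.

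Large and small subunit genes had like medians in the pairs of lines. In ZI418N over SU26 the median log2 fold change was -0.16 for the 51 tested RpL genes and -0.12 for the 34 tested RpS genes. In ZI418N over SU58 it was -0.15 for RpL and -0.19 for RpS, and in SU58 over SU26 it was 0.03 for RpL and 0.08 for RpS. The difference between the subunits was not tested.

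Over all 6 genotypes together, 4 of 85 members passed edgeR's quasi-likelihood F test, beside 26.6% of all genes. They were RpL5 with an adjusted p of 0.00918, RpS20 with 0.0159, RpS19a with 0.0163 and RpL40 with 0.0456. RpS15Aa came next with 0.0671 and did not pass. DESeq2's likelihood ratio test called 21 members. The count was 1 without any 1 of the SU58 or ZI418N libraries, 8 without SU26xZI418N replicate 1, and 0 without the 2 libraries with other tissue.

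**Figure D4:**
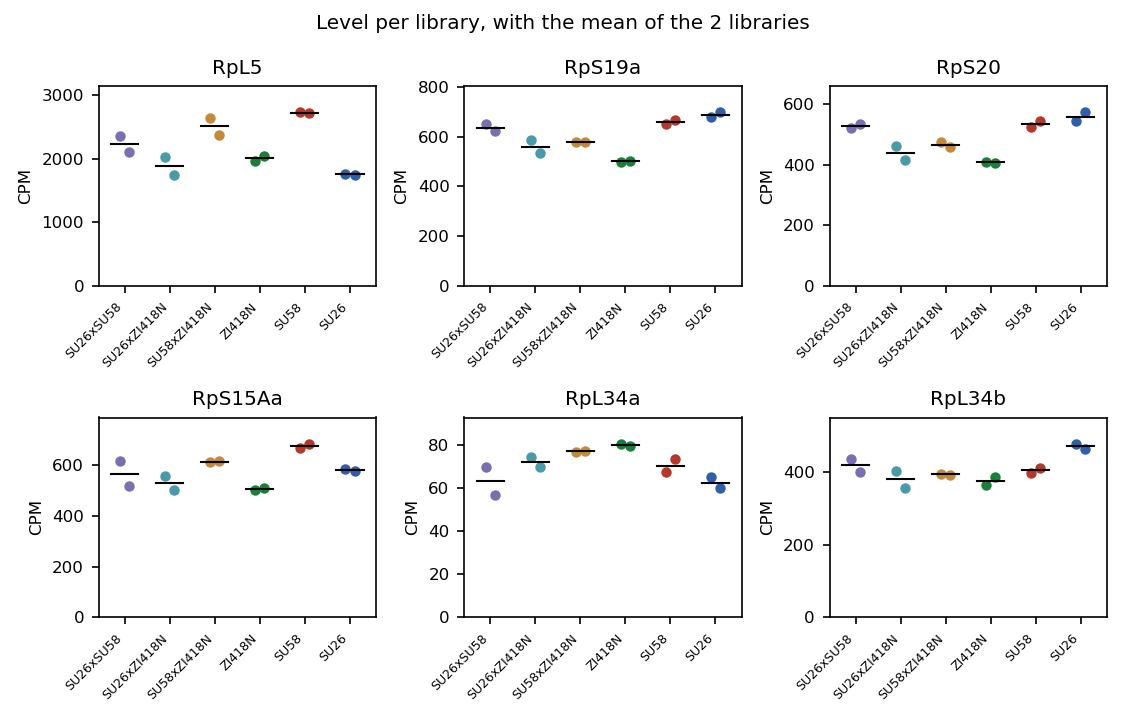
Level in CPM of RpL5, RpS19a, RpS20, RpS15Aa, RpL34a and RpL34b in each library (points) with the mean of the 2 libraries (line), hybrids left and parental lines right. RpL5 is highest in SU58, RpS19a and RpS20 are lowest in ZI418N, and RpL34a is highest in ZI418N.

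The hybrids were compared with their parents, which asks how the members are expressed when 2 parental genomes meet. No member passed against the mean of its parents in SU26xSU58, SU26xZI418N or SU58xZI418N by edgeR's quasi-likelihood test, beside 0.108%, 5.0% and 0.387% of all genes. The number with an unadjusted p under 0.05 was 0, 2 and 0, and DESeq2 called 0, 1 and 0. No member passed the test for lying outside both parents in any hybrid, with 0, 1 and 0 at an unadjusted p under 0.05. That test called 0.0% of all genes, so the lack of calls does not place the members within their parents. In the mean of the hybrids over the mean of the parents 0 members passed, beside 0.849% of all genes, with 0 at an unadjusted p under 0.05 and 0 by DESeq2.

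Against single parents, members passed the test in 1 of 6 comparisons. In SU26xZI418N over SU26, 5 of 85 members passed, all lower in the hybrid, beside 22.7% of all genes, 11.2% higher and 11.5% lower, and 23 had an unadjusted p under 0.05. They were RpS20 (log2 fold change -0.35, adjusted p 0.0222), RpS19a (-0.30, 0.0303), RpS26 (-0.35, 0.0329), RpLP0 (-0.38, 0.0345) and RpL34b (-0.31, 0.0396) by edgeR's quasi-likelihood test. The count was 0 without SU26xZI418N replicate 2, the library with the high germ line markers, where the log2 fold changes of the 5 were -0.22 to -0.28, and 14 without SU26xZI418N replicate 1. It was 0 or 1 without any 1 of the SU26, SU58 or SU58xZI418N libraries and 2 without either ZI418N library. DESeq2 called 18, 1 higher and 17 lower. With library totals and with scaling to the sum of the members, which move the median of all genes by 0.17 and 0.15, 0 were lower and 2 higher, RpL34a and RpL5.

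The other single-parent comparisons had 0 members called by edgeR. These were SU26xSU58 over SU26, beside 4.54% of all genes, and SU26xSU58 over SU58, beside 0.806%. SU26xZI418N over ZI418N had 0 beside 3.06%, SU58xZI418N over SU58 had 0 beside 2.54% and SU58xZI418N over ZI418N had 0 beside 3.45%. The numbers at an unadjusted p under 0.05 were 4, 2, 1, 4 and 4 in that order, and DESeq2 called 1, 0, 1, 0 and 1. The hybrids share these parental libraries, so the comparisons are not independent.

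Most members lay slightly below the mean of the parents in SU26xSU58 and SU26xZI418N. The median was -0.09 in SU26xSU58, with 82 of 85 members below 0, -0.08 in SU26xZI418N, with 73 below 0, and 0.02 in SU58xZI418N, with 22 below 0, beside 0.00, 0.02 and 0.01 over all genes. In the mean of the hybrids over the mean of the parents it was -0.05, with 80 of 85 below 0, beside 0.02 over all genes, and it became 0.00 with scaling to the sum of the members. With 1 library left out at a time the medians reached -0.17 in SU26xSU58 and -0.16 in SU26xZI418N. The median of SU26xSU58 became 0.00 without its replicate 2 and 0.01 with scaling to the sum of the members, and that of SU26xZI418N became 0.02 without its replicate 2, 0.00 with scaling to the sum of the members and 0.04 with library totals, which move the median of all genes by 0.12. With scaling to the sum of the members, which moves the median of all genes by 0.10 in SU26xSU58, that of SU58xZI418N became -0.01.

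RpS19a and RpS20 took values between those of the parents. RpS19a had 586 and 533 CPM in SU26xZI418N and 579 and 581 CPM in SU58xZI418N, above both ZI418N libraries and below both libraries of the Swedish parent. RpS20 had 462 and 414 CPM in SU26xZI418N and 473 and 459 CPM in SU58xZI418N, in the same place. In SU26xSU58, the hybrid with no ZI418N parent, RpS19a had 650.0 and 624 CPM and RpS20 had 521 and 535 CPM. The distances from the mean of the parents were -0.07 and 0.01 for RpS19a, and -0.12 and 0.00 for RpS20, in SU26xZI418N and SU58xZI418N, with adjusted p of 0.295 and above by edgeR's quasi-likelihood test.

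RpLP0, the base of the stalk that binds translation factors, had the lowest log2 fold change of a member in SU26xZI418N over the mean of its parents. It had 935 and 807 CPM in SU26xZI418N, against 908 and 944 CPM in ZI418N and 1081 and 1189.8 CPM in SU26. The hybrid overlapped ZI418N and lay below SU26. The log2 fold change over the mean of the parents was -0.24, with an adjusted p of 0.138 by edgeR's quasi-likelihood test, which did not pass.

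Paralog pairs were unequal in every set. The share of the second copy in the summed level per kb of the pair, as a mean over the 12 libraries, was 28.6% for RpS14b beside RpS14a, 18.0% for RpL24-like beside RpL24 and 17.8% for RpL34a beside RpL34b. It was 3.63% for RpS15Ab beside RpS15Aa, 2.22% for RpL7-like beside RpL7 and 1.97% for RpLP0-like beside RpLP0. RpL24-like, RpL7-like and RpLP0-like resemble the yeast assembly factors Rlp24, Rlp7 and Mrt4, so these 3 are pairs by sequence and not 2 sources of 1 ribosomal protein. RpL7-like shares 98.8% of its exon bases with CG34164 on the same strand, and its counts could belong to either.

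**Figure D5:**
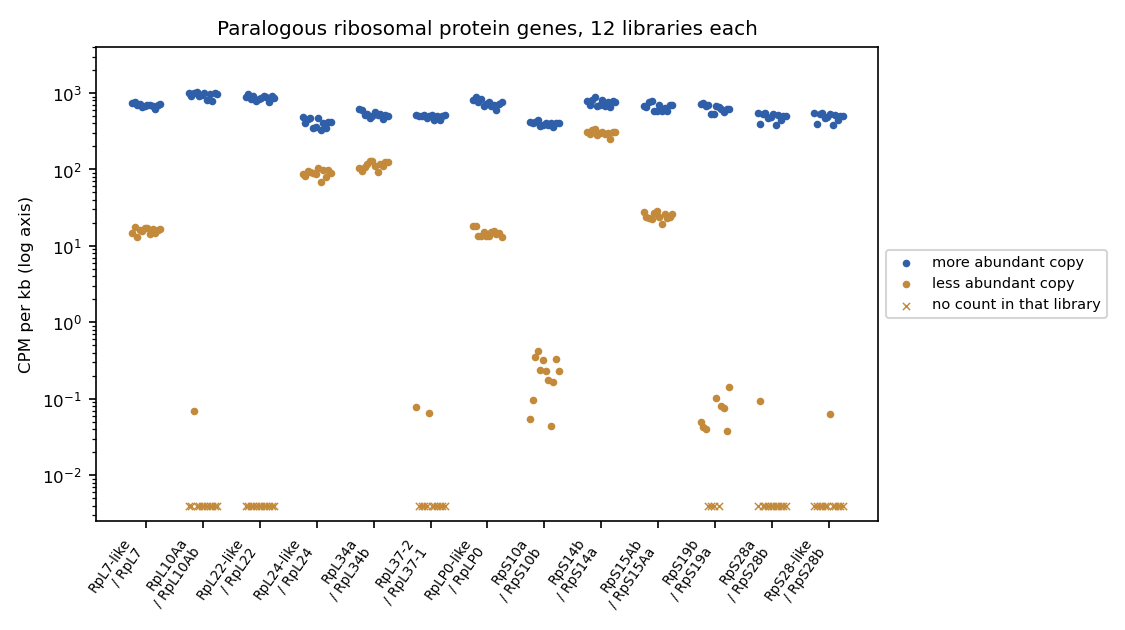
Level in CPM per kb (log axis) of both genes of 13 paralog pairs in each of the 12 libraries, the second copy against the more abundant one. Crosses mark libraries with no count. The second copies of RpS14, RpL24 and RpL34 lie within about an order of magnitude of the main copy, and those of RpL10A, RpL22, RpL37, RpS19 and RpS28 are at or near 0 counts.

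RpS14a and RpS14b lie in tandem on the X chromosome, at 7933742 to 7934677 and 7934898 to 7935792, both on the plus strand. RpS14, a protein of the platform of the small subunit, was supplied by both genes in a nearly fixed ratio, with a share of RpS14b from 27.2% to 30.3% over the libraries. The genes are near-identical in their coding parts, so the split of reads between them depends on how reads that match both were counted, a step the sources used here do not give. Such splitting may also touch the similar pairs of RpL34 and RpS15A.

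In the RpL34 pair the balance differed between the parental lines. RpL34a had 80.6 and 79.4 CPM in ZI418N and 67.3 and 73.4 CPM in SU58, against 65.1 and 59.9 CPM in SU26. RpL34b had 365 and 386 CPM in ZI418N and 398 and 412 CPM in SU58, against 479 and 463 CPM in SU26. The 2 copies thus ran in opposite order over the parental lines. In ZI418N over SU26 the log2 fold change was 0.36 ± 0.10 (SE) for RpL34a and -0.33 ± 0.09 (SE) for RpL34b, with adjusted p of 0.0360 and 0.0280 by edgeR's quasi-likelihood test.

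As a share of the pair per kb, RpL34a took 20.9% ± 0.817 in ZI418N, 17.7% ± 0.554 in SU58 and 14.1% ± 0.422 in SU26 (SD, n = 2 each). The hybrids had 15.7% ± 1.11 in SU26xSU58, 19.0% ± 0.621 in SU26xZI418N and 19.5% ± 0.200 in SU58xZI418N, each between its parents. The summed level of the pair was 455 ± 13.7 CPM in ZI418N, 475 ± 14.2 CPM in SU58 and 533 ± 15.2 CPM in SU26. The share itself was not tested. RpL34a lost its call without any 1 of the SU26, SU58, ZI418N or SU58xZI418N libraries (adjusted p 0.0558 to 0.179), and RpL34b without any 1 of the SU26, SU58 or ZI418N libraries (0.0575 to 0.160). The call of RpL34b was also lost with library totals and with scaling to the sum of the members, where RpL34a kept its call. Over the 20 alternative fits the log2 fold change of RpL34b ran from -0.38 to -0.19. RpL34a also lost its call without the 2 libraries with other tissue. RpL34a lies on 3R at 26058420 to 26059267 and RpL34b on 3R at 9400237 to 9401226, both on the minus strand.

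RpL24-like took 20.1% ± 0.713 of its pair in ZI418N, 16.9% ± 0.772 in SU58 and 15.97% ± 1.21 in SU26 (SD, n = 2 each). RpL24-like itself had 70.1 and 68.1 CPM in ZI418N, 73.7 and 71.4 CPM in SU58, and 66.5 and 64.3 CPM in SU26. RpL24 had 429 and 443 CPM in ZI418N, 553 and 579 CPM in SU58, and 592 and 504 CPM in SU26. Neither gene passed in a pair of parental lines. RpL24 shares 21.6% of its exon bases with CG7099 on the opposite strand. RpS15Ab also took a larger part of its pair in ZI418N, 4.60% ± 0.145, than in SU58, 2.85% ± 0.102, and in SU26, 3.72% ± 0.334 (SD, n = 2 each). RpS15Ab itself had 19.6 and 20.8 CPM in ZI418N, against 16.6 and 16.2 CPM in SU58 and 20.0 and 17.2 CPM in SU26. The libraries of ZI418N and SU58 did not overlap, and their log2 fold change of 0.30 did not pass (adjusted p 0.146 by edgeR's quasi-likelihood test). Those of ZI418N and SU26 overlapped, while RpS15Aa had 504 and 509 CPM in ZI418N, against 587 and 578 CPM in SU26.

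Several other second copies were almost silent in the tubule. RpS10a had 60 counts in all 12 libraries together and RpS19b, which in Drosophila is known from the germ line, had 15. RpL10Aa and RpL37-2 had 2 counts each, RpS28a and RpS28-like 1 each, and RpL22-like, known from the Drosophila testis, had 0. In SU26xZI418N replicate 2, with its germ line markers, RpS19b had 2 counts and RpS10a had 4, no more than in some other libraries.

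Genes that build, load and regulate ribosomes were compared in the same fit. Of all genes, 8.06% rose and 9.56% fell in SU58 over SU26, 10.9% rose and 13.1% fell in ZI418N over SU26, and 7.58% rose and 9.33% fell in ZI418N over SU58, and no list was tested against these shares. The 2 ribosome components whose symbols do not begin with Rp, sta and Rack1, had 0 calls in each pair of parental lines. Of 26 initiation factors, 0 rose and 4 fell in SU58 over SU26, 1 rose and 5 fell in ZI418N over SU26, and 2 rose and 2 fell in ZI418N over SU58. In all 15.4%, 23.1% and 15.4% were called, beside 17.6%, 24.0% and 16.9% of all genes. eIF2beta, which takes part in bringing the initiator tRNA, averaged 83.4 ± 1.68 CPM in ZI418N, 100.9 ± 4.13 CPM in SU58, and 133 ± 5.12 CPM in SU26 (SD, n = 2 each). Its log2 fold changes over SU26 were -0.68 in ZI418N and -0.40 in SU58, with adjusted p of 0.000324 and 0.00682 by edgeR's quasi-likelihood test.

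Of 9 elongation and release factors, 2 rose and 1 fell in SU58 over SU26, 2 rose and 1 fell in ZI418N over SU26, and 0 rose and 1 fell in ZI418N over SU58, which is 33.3%, 33.3% and 11.1% called, beside 17.6%, 24.0% and 16.9% of all genes. eEF1alpha1, which delivers aminoacyl-tRNA, averaged 9733 ± 309 CPM in ZI418N and 9149 ± 90.1 CPM in SU58, against 7164 ± 218 CPM in SU26 (SD, n = 2 each). Its log2 fold changes over SU26 were 0.44 in ZI418N and 0.35 in SU58, with adjusted p of 0.00338 and 0.0142 by edgeR's quasi-likelihood test. eEF1alpha1 was thus higher in ZI418N than in SU26 where 8 ribosomal protein genes were lower. The factor that fell, eEF1delta, averaged 68.5 ± 5.56 CPM in ZI418N, against 113 ± 9.86 CPM in SU26 (SD, n = 2 each). Its log2 fold change was -0.72, with an adjusted p of 0.00115 by edgeR's quasi-likelihood test. The median of the 9 factors in ZI418N over SU26 was -0.08.

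Of 24 ribosome assembly genes, 1 rose and 6 fell in SU58 over SU26, 1 rose and 5 fell in ZI418N over SU26, and 1 rose and 0 fell in ZI418N over SU58, which is 29.2%, 25% and 4.17% called, beside 17.6%, 24.0% and 16.9% of all genes. eIF6, which keeps new large subunits from joining small ones too early, averaged 17.6 ± 0.233 CPM in ZI418N and 14.5 ± 0.707 CPM in SU58, against 31.4 ± 1.31 CPM in SU26 (SD, n = 2 each). The log2 fold changes of eIF6 over SU26 were -0.84 and -1.11, with adjusted p of 0.000352 in ZI418N and 0.000121 in SU58 by edgeR's quasi-likelihood test. Fib, the methyltransferase fibrillarin of the nucleolus, fell by 0.76 on the log2 scale in ZI418N over SU26 (adjusted p 0.00712).

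Of 13 regulators found, 0 rose and 3 fell in SU58 over SU26, 0 rose and 1 fell in ZI418N over SU26, and 2 rose and 0 fell in ZI418N over SU58, which is 23.1%, 7.69% and 15.4% called, beside 17.6%, 24.0% and 16.9% of all genes. The last 2 were Myc, which drives ribosome synthesis, and REPTOR-BP, which acts downstream of TOR signalling. Myc averaged 95.3 ± 14.3 CPM in ZI418N, against 56.1 ± 5.45 CPM in SU58 (SD, n = 2 each), with a log2 fold change of 0.76 and an adjusted p of 0.0179 by edgeR's quasi-likelihood test. Xrp1, which in Drosophila is induced when ribosomal protein genes are lost, averaged 1217 ± 42.4 CPM in SU58, against 1887 ± 324 CPM in SU26, with a log2 fold change of -0.63 and an adjusted p of 0.0257.

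The proteins of the mitochondrial ribosome, a separate set of genes, had calls in one direction. Of 72, 0 rose and 7 fell in SU58 over SU26, 0 rose and 25 fell in ZI418N over SU26, and 0 rose and 10 fell in ZI418N over SU58, with medians of -0.11, -0.30 and -0.21. The shares that fell were 9.72%, 34.7% and 13.9%, beside 9.56%, 13.1% and 9.33% of all genes. The medians of the cytosolic members were 0.05, -0.14 and -0.18 in the same comparisons. mRpS2 averaged 10.4 ± 0.139 CPM in ZI418N, against 18.6 ± 2.79 CPM in SU26 and 17.5 ± 0.332 CPM in SU58 (SD, n = 2 each). The comparisons share lines, so these counts are given side by side only.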

How the data were processed

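Counts per gene, as deposited by the authors for each of the 12 libraries, were used with the gene length of the same files. Per the labels, poly-A RNA was sequenced as paired reads. For the aligner, the counting tool, its strand setting, reads that match several genes and the genome build, the authors' choices were not given in the sources used here. Symbols came from a FlyBase name table: 13748 genes matched by FBgn, 166 by CG number and 5 had none. Coordinates and shared exons are those of Ensembl BDGP6, which may not be the authors' build, and 5 members have none there. Members, gene lists and alternatives were chosen with earlier results of these data known.

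A mean per genotype was fitted to all 12 libraries with edgeR 4.0.16 in R 4.3.3, after filterByExpr (9302 genes left) and TMM scaling. The fit had 6 residual and 3.08 prior degrees of freedom, and the common biological coefficient of variation was 22.5%. Each contrast was put to edgeR's quasi-likelihood test, adjusted by Benjamini-Hochberg over all genes tested and called at 0.05. The SE is the absolute log2 fold change over the square root of F. A test outside both parents took the larger p of both. The mean of the parents is on the log2 scale. Alternatives were DESeq2 1.42.0, its size factors, library totals, the sum of the members as library size, other filters, a replicate block, leaving out libraries, and changed membership. Genes were named by rule: all paralogs, up to 5 called rises and falls a contrast without overlap, the 5 lowest p over genotypes, and the 5 highest and lowest per kb. Genes named by range or replicate difference, and RpLP0, RpL10 and RpL18, are exceptions chosen after their values were seen. Values of 1 paralog pair are not reported here, and its less abundant gene is not drawn, though both genes enter all counts over the members. Other lists gave up to 3 called genes each. The test was tried on simulated counts. Replicates were checked not to be copies (mean chi-square per gene 13.8 to 122.6). The precision at these depths is set by the spread between libraries.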

Additional observations from a re-analysis of the deposited data

How the results depend on the processing

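No named call turned its direction under any of the 20 alternative fits, and of the values at single genes 146 lost their call and 254 did not. Size factors of DESeq2 in edgeR changed no count of calls except that of SU26xZI418N over SU26, 6 in place of 5. DESeq2 itself called 4 members in SU58 over SU26, 16 in ZI418N over SU26, 16 in ZI418N over SU58, 1 in SU26xZI418N over its parents, 18 in SU26xZI418N over SU26, 1 each in SU26xSU58 over SU26, SU26xZI418N over ZI418N and SU58xZI418N over ZI418N, and 21 over the 6 genotypes. Library totals gave 11 calls and a median of 0.18 in SU58 over SU26, a median of -0.045 in ZI418N over SU26, and 18 calls in ZI418N over SU58. Scaling to the sum of the members gave 5 calls and a median of -0.011 in ZI418N over SU26, 3 calls and a median of 0.013 in ZI418N over SU58, and 2 calls over the 6 genotypes. Without SU58 replicate 1 and SU26xZI418N replicate 2, 1 call was left in SU58 over SU26, 0 in ZI418N over SU58 and 0 over the 6 genotypes. Without the -like genes, 1 call was left in SU58 over SU26, and with no filter SU26xZI418N over its parents had 1. In SU26xZI418N over SU26, library totals and scaling to the sum of the members gave 2 calls each, no filter gave 3 and leaving out those 2 libraries 0. Both scalings gave 1 in SU26xSU58 over SU26. The alternatives for hybrids over single parents were chosen after seeing the data. The cause was not tested, except that fewer samples or genes enter some fits.

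Leaving out 1 library at a time gave 1 to 3 calls in SU58 over SU26, 2 to 10 in ZI418N over SU26, 0 to 9 in ZI418N over SU58, 1 to 8 over the 6 genotypes, 0 to 14 in SU26xZI418N over SU26, and 0 to 1 in SU26xZI418N over its parents, over ZI418N and outside both. The medians ranged from -0.17 to 0.00 in SU26xSU58 over its parents and from -0.16 to 0.02 in SU26xZI418N over its parents. The share of counts ranged from 5.28% to 6.06% in SU26xSU58, 5.54% to 5.78% in SU26xZI418N, 5.97% to 6.12% in SU58xZI418N, 5.42% to 5.49% in ZI418N, 6.34% to 6.55% in SU58 and 5.44% to 5.75% in SU26. Of the counts left after the 10 most abundant other genes, the members took 6.84% in SU26xSU58, 6.80% in SU26xZI418N, 7.19% in SU58xZI418N, 6.51% in ZI418N, 7.70% in SU58 and 6.63% in SU26. By raw counts the share of the second copy was 3.33% for RpL7-like, 12.2% for RpL24-like, 14.9% for RpL34a, 1.42% for RpLP0-like, 21.4% for RpS14b and 3.01% for RpS15Ab.

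Replicate numbers were not taken to pair the libraries, since over all genes the correlations of deviations between same-numbered libraries ran from -0.22 to 0.32 over 15 pairs of genotypes. Over the members alone SU26 and SU26xSU58 had 0.86 and the other pairs -0.16 to 0.41. With a replicate block the calls were 3 in SU58 over SU26, 8 in ZI418N over SU26, 8 in ZI418N over SU58, 3 over the 6 genotypes, 5 in SU26xZI418N over SU26 and 0 in the other comparisons of hybrids.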
